A study of Mus musculus with 2 samples.

Results

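The clustered histone genes of the mouse encode the linker histone H1 and the core histones H2A, H2B, H3 and H4, in tandem groups named Hist1 to Hist4. All gene rows whose symbol starts with Hist1h, Hist2h, Hist3h or Hist4h were taken, which gave 70 genes of the 48709 rows in the count matrices. Of these, 56 belong to Hist1, 10 to Hist2, 3 to Hist3 and 1 to Hist4, and by symbol 6 are of type H1, 20 H2A, 19 H2B, 12 H3 and 13 H4. A transcript was counted at least once for 64 of them, 54 had 20 or more unique molecular identifiers (UMIs, 1 per captured transcript molecule) over both libraries, 10 had 1 to 19 and 6 were at 0 in both.

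The study captured cells from cochleae of C57BL/6J/B6 mice of both sexes, pooled, with the genotype CX3CR1+/GFP Thy1+/YFP in both groups, so that the controls carry both fluorescent reporters too. Cells were collected 33 days after a cochlear electrode was implanted, were selected with magnetic beads against CD11b, a surface protein of myeloid cells, and went through a 10x Genomics 3′ protocol. There was 1 library from implanted cochleae (3149 cells kept) and 1 from non-implanted cochleae (3513 cells kept). The series text describes the comparison ears as contralateral, while the labels say only non-implanted. The series title names dexamethasone-eluting and standard arrays, but which one the implanted ears held, and how many animals were pooled, was not given for the samples. The extract protocol on the samples describes dissection of the stria vascularis at P1 and P30, which differs from the series text. With 1 library per group, no difference between the groups could be tested. Intervals are exact 95% intervals that cover counting error only, and they are too narrow because UMIs of 1 cell are not independent.

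Kept cells held medians of 4371 and 4238 UMIs, from 19426864 and 21485090 UMIs in all (implanted first, here and in every pair below). Libraries shared 6 cell barcodes. The gene of CD11b itself, Itgam, was listed at 0 UMIs in both libraries, whereas the leukocyte gene Ptprc stood at 740 and 776 CPM (UMIs per 1000000 UMIs of the cells) and was found in 90.3% and 93.2% of cells. Clusters were named from fixed marker lists as mature neutrophil-like, immature neutrophil-like, granulocyte precursor-like, monocyte-like, macrophage-like, erythroid-like, B cell-like and osteoclast-like, and 1 cluster stayed unnamed. Histone rows took no part in the clustering.

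Most clustered histone genes are transcribed when DNA is copied in S phase, so that new chromatin can be packed. Their messenger RNAs usually carry no poly(A) tail: the end is cut just after a short stem-loop, which the stem-loop binding protein Slbp holds, and the transcripts are destroyed when replication ends. A few members also make polyadenylated transcripts that extend past the stem-loop, in differentiated and non-dividing cells among others. The 3′ libraries used here prime on stretches of A, so they reach replication-type transcripts only in part, and UMIs of different members do not rank their true abundance. Levels below are therefore compared for 1 gene, or 1 sum, between groups of cells.

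The sequence that defines the class was searched in the GENCODE M21 transcripts (GRCm38), to which 68 of the 70 members matched by gene identifier. The search was for the histone stem-loop, 6 bases on each side that can pair, starting GG and ending CC, around a loop of 4 that starts TT, on the transcript strand, and 42 of the 65 members with an annotated stop codon held it after the stop. Another 23 coding members had no match, among them models such as Hist1h1b that end at the stop codon, so that no match says only that the letters are not in the annotated transcript. There were 6 distinct cores, and 24 members carried the same one. The lines below show the stem-loop in capitals for the H1 gene with the most UMIs in non-cycling cells, 2 H2A genes of cycling cells, and 2 H4 genes that differ in their core.
Hist1h1c, chr13:23739512-23739527, plus strand: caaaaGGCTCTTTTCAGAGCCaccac
Hist1h2ae, chr13:23570668-23570683, minus strand: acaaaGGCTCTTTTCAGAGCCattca
Hist1h2ap, chr13:21833029-21833044, minus strand: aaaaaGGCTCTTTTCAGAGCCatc
Hist1h4d, chr13:23581950-23581965, plus strand: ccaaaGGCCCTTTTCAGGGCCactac
Hist1h4i, chr13:22040966-22040981, minus strand: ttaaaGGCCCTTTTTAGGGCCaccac

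Stretches of A upstream of the stem-loop are shown next, in capitals, because oligo(dT) can anneal there, and because 2 of these members differ between the libraries in the counts given further down. Hist1h2ap and Hist1h2ao share a run of 12 A that starts 27 bases after the stop, and Hist1h2ae has a run of 8 that starts 21 bases after it.
Hist1h2ap, chr13:21833045-21833056, minus strand: ccgaaaagAAAAAAAAAAAAggctcttt
Hist1h2ao, chr13:21810886-21810897, plus strand: ccgaaaagAAAAAAAAAAAAggctcttt
Hist1h2ae, chr13:23570688-23570695, minus strand: aatctcgtAAAAAAAAcaaaggct

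A poly(A) signal (AATAAA or ATTAAA) past the stem-loop was annotated in 15 members. The transcript of Hist1h1c, at chr13:23738808-23740367 on the plus strand, has 1 exon, runs 840 bases past the stem-loop and holds 2 such signals. The model of Hist1h2bc, at chr13:23684199-23692908 on the plus strand, is spliced from 2 exons, lacks the stem-loop after its stop codon and holds 1 signal. Hist1h1b, at chr13:21779883-21780625 on the minus strand, is a single exon of 743 bases. Members resemble each other: 60 shared at least 1 window of 90 bases with another member, 92.4% of the windows of Hist1h2ap were shared against 0% of those of Hist1h1b, and counts of near-identical copies such as Hist1h2ap and Hist1h2ao are uncertain to that extent. Hist1h2be overlaps Hist1h1e on the same strand, so counts of these 2 genes are uncertain where they overlap.

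RefSeq promoters (GRCm38.p6, 250 bases before to 50 after the start) were found for 59 members. CCAAT, counted on both strands, was present in all promoters of the H1, H2A, H2B and H3 genes (6, 17, 14 and 10) and in 3 of 12 for H4, against 37.4% of all 32851 promoters. TATAAA was present in 59.3% of members against 13.6% of all, and the octamer ATTTGCAT in 7 of 17 H2A and 5 of 14 H2B promoters and in no other member, against 1.74% of all. The element AAACACAAA was found in 2 members (3.39%, against 0.767% of all). The promoters of the H1 gene with the highest S-high ratio and of the one with the most UMIs in non-cycling cells are given below. CCAAT and TATAAA of either strand are in capitals. Hist1h1b holds both motifs, and Hist1h1c holds CCAAT but no exact TATAAA. Only exact letters were searched, so TATA-like stretches such as tatata in Hist1h1c were not counted.
Hist1h1b, chr13:21780576-21780875, minus strand: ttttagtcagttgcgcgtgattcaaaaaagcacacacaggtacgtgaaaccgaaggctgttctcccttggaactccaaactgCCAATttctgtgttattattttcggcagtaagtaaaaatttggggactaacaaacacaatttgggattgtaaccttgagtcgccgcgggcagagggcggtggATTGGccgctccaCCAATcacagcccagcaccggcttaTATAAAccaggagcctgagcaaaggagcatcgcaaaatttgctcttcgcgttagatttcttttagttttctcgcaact
Hist1h1c, chr13:23738557-23738856, plus strand: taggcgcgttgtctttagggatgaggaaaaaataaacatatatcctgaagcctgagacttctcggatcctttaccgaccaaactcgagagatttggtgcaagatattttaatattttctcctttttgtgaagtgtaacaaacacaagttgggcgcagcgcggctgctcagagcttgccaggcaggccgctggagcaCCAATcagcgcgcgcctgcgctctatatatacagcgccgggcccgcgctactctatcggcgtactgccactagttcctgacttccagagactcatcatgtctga

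Histone transcripts were highest in cells with cell-cycle transcripts. Cells were thinned to 1000 UMIs and sorted by the UMIs of 40 S-phase and 40 G2/M genes, none of them a histone. Cells with 0 such UMIs are called cells without cycle transcripts. Cells with 3 or more are called cycling, and they are S-high where S genes equal or exceed G2/M genes and G2/M-high otherwise. This is a cut through a continuum: 348 cells had 2 such UMIs and 136 had 3, and 103 and 69 cells were too shallow to be placed. The summed level of the 70 members was 378 CPM (363.9 to 391.7) and 419 CPM (406 to 432) in cells without cycle transcripts. In S-high cells it was 2083 CPM (2025 to 2142, 176 cells) and 1698 CPM (1644 to 1754, 162 cells), which is 5.52 times (5.27 to 5.78) and 4.05 times (3.87 to 4.24) as high. S-high cells were also deeper, with medians of 12326 and 12724 UMIs against 3647 and 3685, and per cell they held 27.9 and 22.6 histone UMIs against 1.72 and 1.92. In G2/M-high cells the sum was 2135 CPM (354 cells) and 1668 CPM (364 cells). The ratio of G2/M-high to S-high cells was 1.03 (0.990 to 1.06) and 0.982 (0.945 to 1.02), so the sums of these 2 states differed by less than the counting error.

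Over finer bins, chosen after the data were seen, the sum was highest in cells with the most cycle transcripts. It was 378 and 419 CPM at 0 cycle UMIs, 324 and 409 at 1, 579 and 490 at 2 (1 cell gave 35.5% and 15.4% of the UMIs of that bin), 948 and 974 at 3 to 4, 1794 and 1626 at 5 to 9, and 3139 and 2261 at 10 or more. Among cycling cells, those with mixed S and G2/M transcripts were highest. Where S genes gave 75% or more of the cycle UMIs the sum was 1481 and 1342 CPM, at 25 to under 50% it was 2566 and 1971 CPM, and under 25% it was 1802 and 1428 CPM. A share can rest on as few as 3 cycle UMIs. The share bins may also differ in cycle UMIs per cell and in cell classes, and the part of these was not tested.

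**Figure D1:**
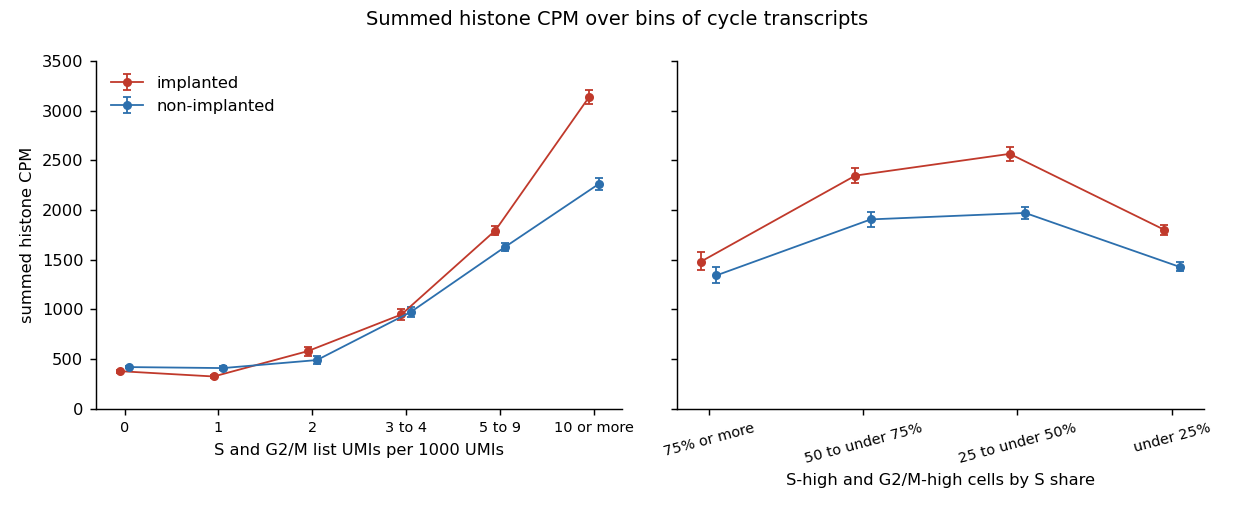
Summed histone CPM (y axis) in cells binned by cycle UMIs per 1000 UMIs (left) and, for cycling cells, by the share of S genes among them (right), with points for each library and exact 95% counting intervals as bars. The sum reaches 3139 CPM (implanted) and 2261 CPM (non-implanted) at 10 or more cycle UMIs, and cells with a mixed S share stand above both ends.

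The member with the most UMIs, Hist1h1b (H1.5, a linker histone of dividing cells), was almost bound to cycling cells. It stood at 2.62 and 4.86 CPM in cells without cycle transcripts, 687 and 571 CPM in S-high cells and 541 and 452 CPM in G2/M-high cells. Pooled over libraries the S-high level was 164 times (128 to 213) the level without cycle transcripts. Hist1h1a, another linker histone, went from 0.262 and 0.216 CPM to 49.7 and 25.5 CPM. Hist1h1d went from 2.36 and 5.73 CPM to 69.6 and 66.3 CPM, and Hist1h1e, an H1 also present outside the cycle, from 35.7 and 49.3 CPM to 240.3 and 245 CPM.

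Among the core histones, several H2A genes had steep profiles. Hist1h2ae was at 1.57 and 2.59 CPM without cycle transcripts and at 181 and 111 CPM in S-high cells, a pooled ratio of 69.2 (49.5 to 99.7). Hist1h2ap was at 2.88 and 2.27 CPM and at 167 and 63.0 CPM, a ratio of 46.0 (33.7 to 64.4). Hist1h2ab (0.262 and 0.648 CPM to 46.3 and 29.7 CPM) and Hist2h2ac (1.18 and 1.19 CPM to 39.5 and 30.1 CPM), the member of the Hist2 cluster with the most UMIs, had ratios of 80.9 and 29.6. For H4, Hist1h4d was at 7.21 and 4.64 CPM and at 84.9 and 67.2 CPM, and for H2B, Hist1h2bj was at 0.787 and 1.51 CPM and at 33.5 and 44.0 CPM. H3 was the type with the fewest UMIs, led by Hist1h3e at 1.18 and 0.864 CPM and at 20.0 and 22.7 CPM.

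Other members were lower in S-high cells, level, or higher by smaller ratios than those above. The states pooled here hold different cell classes. Mature neutrophil-like cells were 798 of 1674 and 1041 of 2015 cells without cycle transcripts, and 13 of 530 and 8 of 526 cycling cells. The part of this mix in the ratios was not tested, and values within immature neutrophil-like cells are given below. Hist1h1c (H1.2) was at 147 and 161 CPM without cycle transcripts and at 103 and 94.5 CPM in S-high cells, a ratio of 0.642 (0.579 to 0.710). Hist1h2bc was at 109 and 115 CPM and at 45.9 and 43.6 CPM, a ratio of 0.398 (0.342 to 0.460). Hist1h2be was level at 9.57 and 11.3 CPM against 12.3 and 8.81 CPM. Hist1h4i (34.0 and 39.4 CPM to 80.7 and 60.2 CPM) and Hist4h4, the only member of its cluster (4.46 and 3.24 CPM to 8.92 and 12.05 CPM), had ratios of 1.92 (1.67 to 2.20) and 2.75 (1.84 to 4.07).

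Fold changes over all genes were taken as log2 of CPM plus 5, which understates low genes, for the 13340 genes with 20 or more UMIs in the cells compared. Of the 70 members 35 entered. S-high cells were at least 2-fold higher for 23 of them and at least 2-fold lower for 1, Hist1h2bc, where 15.3% of all genes were higher and 7.83% lower. Their median was 1.34, against 0.13 for all genes. With 20 CPM added in place of 5 the count of higher members was 10, and the share over all genes was not taken at that setting. Each library alone gave 22 of 28 members higher and 1 lower (implanted, background 17.5% and 10.9%) and 20 of 26 higher and 1 lower (non-implanted, background 17.9% and 8.69%). All cycling cells against cells without cycle transcripts gave 23 of 54 members higher (background 9.7%) and 1 lower (7.84%) with libraries pooled. In the implanted library alone this was 23 of 40 higher (10.9%) and 0 lower (10.7%), and in the non-implanted library 21 of 42 higher (11.6%) and 1 lower (8.12%). Hist1h1b had the highest value, 6.17, followed by Hist1h2ae at 4.42, Hist1h2ap at 4.02, Hist1h1a at 3.04 and Hist1h1d at 2.99. The lowest values were those of Hist1h2bc at -1.24, Hist1h1c at -0.62, Hist1h2be at 0.01, Hist2h2be at 0.46 and Hist3h2ba at 0.68. The 2-fold line on this scale ran between Hist1h3i at 1.05 and Hist1h2bh at 0.98. All 8 H2A genes and all 5 H3 genes that entered were higher, with 4 of 5 H1, 3 of 10 H2B and 3 of 7 H4 genes. The 5 CPM added weigh on genes of low level: by the plain ratio of CPM, tried after the values were seen, 31 of the 35 members were at least 2-fold higher (background 27.2%) and 1 lower (16%). By type these were 4 of 5 H1, 8 of 8 H2A, 8 of 10 H2B, 5 of 5 H3 and 6 of 7 H4 genes.

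Members were also read by whether a poly(A) signal was annotated after the stop codon or the stem-loop. Of 14 members with one, 6 were at least 2-fold higher in S-high cells and 1 lower, with a median of 0.88. Of 19 members without the signal 16 were higher, with a median of 1.92. Over all genes 15.3% were higher and 7.83% lower. The states compared hold different cell classes, and the part of this mix in the split was not tested. Hist1h1c, Hist1h2bc, Hist1h2be, Hist1h4i and Hist4h4 all carry a signal, and so do the steep Hist1h2ae, Hist1h4d and Hist1h1d. Hist1h1b and Hist1h2ap carry none. Where the model ends at or near the stop codon, as for Hist1h1b, a signal could not be found: of the 19 members, 13 had an annotated stem-loop, and 10 of these were at least 2-fold higher, with a median of 1.54 (a split made after the values were seen).

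On the log2 scale of CPM plus 5, 0 of 51 members tested were 2-fold higher in G2/M-high than in S-high cells (background 0.296%) and 0 lower (2.52%). By plain ratio 2 members of low counts were past 2-fold, against 13.4% of all genes. Hist2h2ab was 4.00 times (1.43 to 15.49) as high in G2/M-high cells, and Hist1h4j 0.414 times (0.210 to 0.808). Hist1h1b was 0.781 times (0.746 to 0.819) as high in G2/M-high as in S-high cells.

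**Figure D2:**
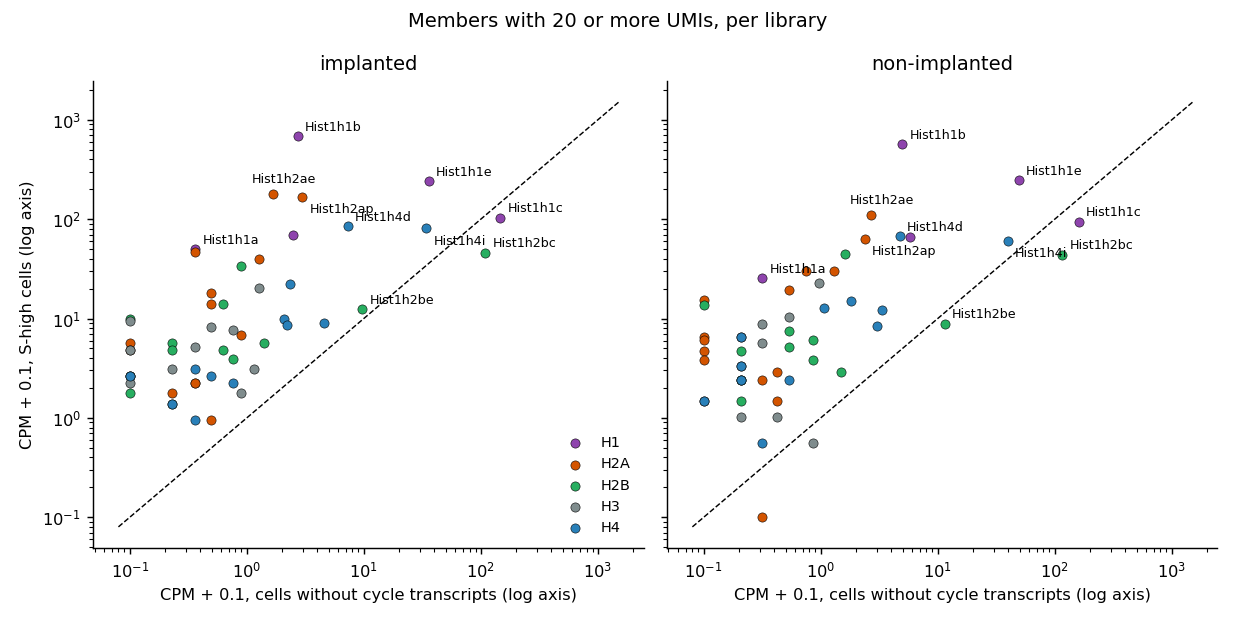
Each point is a histone gene with 20 or more UMIs (54 genes), at its CPM plus 0.1 in cells without cycle transcripts (x, log axis) and in S-high cells (y, log axis), 1 panel per library, coloured by histone type. The dashed line marks equal levels: Hist1h1b lies far above it (2.62 to 687 CPM in the implanted library), while Hist1h1c and Hist1h2bc lie below it.

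The make-up of the histone signal by type differed between the states. H1 genes gave 49.7% and 52.7% of all member UMIs without cycle transcripts and 55.2% and 59.0% in S-high cells. H2A gave 2.33% and 2.04% against 23.7% and 17.5%, and H2B 32.6% and 31.6% against 6.99% and 8.62%. Within H1, Hist1h1c held 78.2% (76.0 to 80.3) and 72.8% (70.8 to 74.7) of the UMIs without cycle transcripts and 8.97% and 9.44% in S-high cells, where Hist1h1b held 59.8% and 57.0%. Within H2B, Hist1h2bc held 88.7% and 87.1% without cycle transcripts and 31.5% and 29.7% in S-high cells. Hist1h4i held 63.3% and 73.1% of H4 without cycle transcripts, and Hist1h4d 52.6% and 49.7% of H4 in G2/M-high cells.

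By cell class, the highest sums were those of erythroid-like cells, 4286 CPM (4143 to 4432, 78 cells) and 2987 CPM (2841 to 3139, 41 cells). Granulocyte precursor-like cells followed at 1920 CPM (99 cells) and 1509 CPM (75 cells). Of the erythroid-like cells deep enough to be placed 78.1% and 75% were cycling, and of the precursor-like cells 94.9% and 92.0%. Immature neutrophil-like cells (26.6% and 26.1% cycling) were at 960 and 853 CPM, and mature neutrophil-like cells (1.17% and 0.551% cycling) at 743 and 811 CPM. Monocyte-like cells (9.37% and 6.64% cycling) were at 427 and 415 CPM and macrophage-like cells (7.18% and 15.5% cycling) at 266 and 366 CPM. The last pair of classes rested on few cells, since the top cell alone gave 10.7% to 11.5% of their histone UMIs in each library. The top cell gave 11.2% in the erythroid-like cells of the non-implanted library. In the smallest classes the levels were 1597 and 813 CPM for B cell-like cells (40 and 33 cells) and 586 and 751 CPM for osteoclast-like cells (11 and 28 cells).

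Within a class, cycling cells could be set against cells without cycle transcripts in 4 classes, and they were higher in all but the mature neutrophil-like. Cycling immature neutrophil-like cells were at 1915 CPM (1871 to 1960) and 1666 CPM (1629 to 1704), and those without cycle transcripts at 178 CPM (164 to 194) and 212 CPM (199 to 227), a ratio of 10.7 (9.86 to 11.7) and 7.84 (7.31 to 8.42). For monocyte-like cells the ratio was 5.44 (31 cycling cells) and 6.16 (19 cycling cells), and for macrophage-like cells 2.64 (15 cycling cells) and 3.77 (30 cycling cells). In these 2 classes the top cell gave 20.6% to 38.6% of the cycling histone UMIs. In mature neutrophil-like cells of the implanted library, 13 cycling cells were at 679 CPM (491 to 914) against 753 CPM (718 to 789) without cycle transcripts, a ratio of 0.901 (0.650 to 1.22). Cycling erythroid-like cells reached 4740 and 3373 CPM, against 1952 and 1565 CPM in cycling precursor-like cells. The cycling immature cells formed a cluster of their own, led by cycle genes, of 302 and 340 cells at 1910 and 1669 CPM. That cluster had 0 markers of its class among its top 10 genes. In 3 other clusterings, 2.51% to 4.02% of the placed cells of the class were cycling, and at Leiden resolution 2 the shares were 32.1% and 30.6%. The ratio within this class thus sets mostly 1 cluster against others, and cell stage and cycle state cannot be told apart in it.

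**Figure D3:**
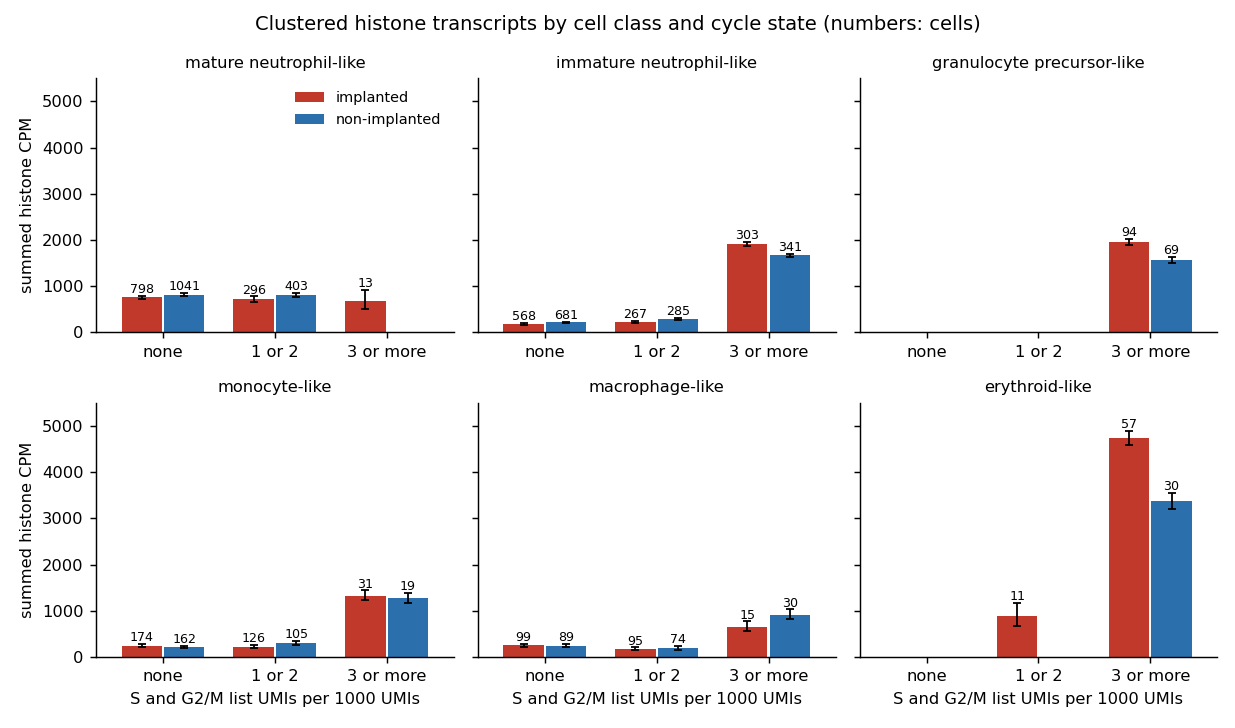
Summed histone CPM (y axis from 0) by cell class and by cycle UMIs per 1000 UMIs, with red bars for the implanted and blue bars for the non-implanted library, exact 95% counting intervals and the number of cells above each bar. Groups under 10 cells are not drawn. Cycling cells stand above the others in immature neutrophil-like, monocyte-like and macrophage-like cells, and mature neutrophil-like cells lie between 679 and 816 CPM in every state.

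Mature neutrophil-like cells, which included few cycling cells, still held histone transcripts, and 2 genes made up most of them. In mature neutrophil-like cells without cycle transcripts Hist1h1c was at 324 and 357 CPM and Hist1h2bc at 274 and 290 CPM. In immature neutrophil-like cells without cycle transcripts they were at 63.5 and 62.5 CPM and at 17.7 and 18.3 CPM, below the mature cells in both libraries. Hist1h4i was at 78.7 and 82.7 CPM against 13.5 and 16.1 CPM, and Hist1h2be at 18.4 and 23.6 CPM against 1.61 and 2.69 CPM. Hist1h1e had the opposite order, 25.8 and 34.2 CPM in mature and 48.6 and 69.1 CPM in immature cells. Over all immature neutrophil-like cells, cycling ones included, Hist1h1c was at 87.2 and 82.6 CPM and Hist1h2bc at 23.2 and 22.4 CPM. Hist1h2be was at 6.19 and 6.00 CPM there. All 3 genes thus stood above their levels in immature cells without cycle transcripts, unlike in the states pooled over classes. Mature cells hold less RNA here (medians of 2583 and 2696 UMIs against 5018 and 5436), yet the histone UMIs per cell were also more, 2.16 and 2.45 against 0.974 and 1.28. Thinned to 1000 UMIs, 46.6% (43.1 to 50.2) and 49.2% (46.1 to 52.3) of these mature cells had a histone UMI, against 16.2% (13.3 to 19.5) and 15.0% (12.4 to 17.9) of the immature cells. Unthinned, the shares were 72.7% and 77.0% against 52.8% and 57.6%. Hist1h1b, the cycle-bound gene, was at 1.31 and 2.24 CPM (3 and 7 UMIs) in the same mature cells.

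Other non-cycling cells had lower levels of the same genes. In monocyte-like cells without cycle transcripts Hist1h1c was at 73.4 and 53.4 CPM and Hist1h2bc at 32.7 and 32.2 CPM. In macrophage-like cells Hist1h1c was at 65.2 and 61.6 CPM and Hist1h2bc at 105 and 61.6 CPM. When Hist1h1c and Hist1h2bc were left out of the sum, the level of all mature neutrophil-like cells was 153 and 174 CPM, and the ratio of S-high cells to cells without cycle transcripts was 15.9 and 10.9.

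**Figure D4:**
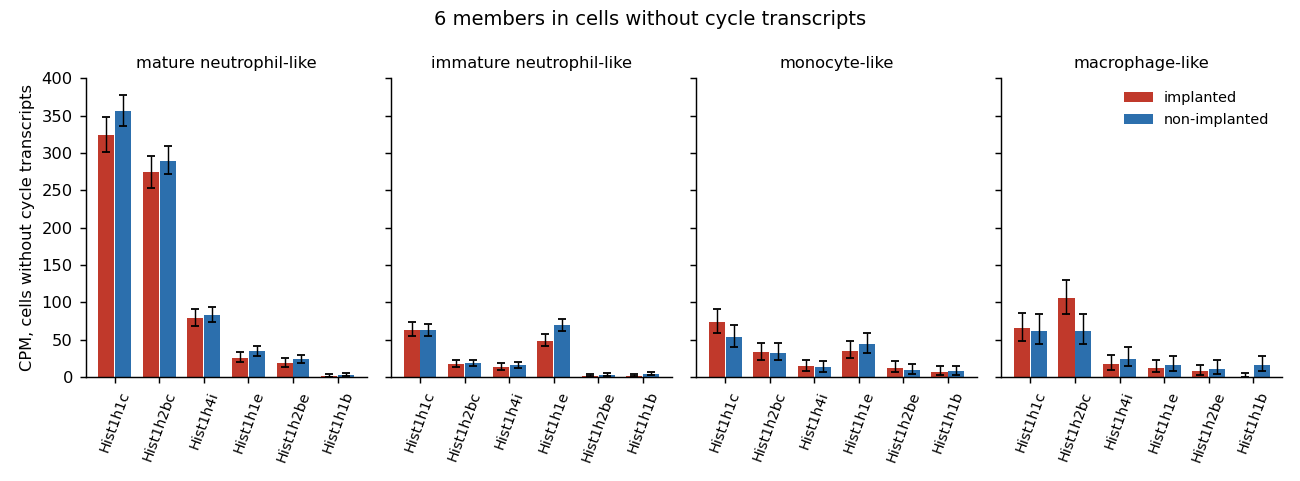
CPM (y axis from 0) of 6 histone genes in cells without cycle transcripts of 4 classes, with red bars for the implanted and blue bars for the non-implanted library and exact 95% counting intervals. Hist1h1c (324 and 357 CPM) and Hist1h2bc (274 and 290 CPM) stand out in mature neutrophil-like cells, and Hist1h1b is near 0 there.

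Cycling erythroid-like cells differed from cycling granulocyte precursor-like and immature neutrophil-like cells in the levels of some members. Hist3h2ba, an H2B gene of the Hist3 cluster on chr11:58948920-58949533, was at 92.3 and 61.6 CPM in cycling erythroid-like cells (65 and 28 UMIs), and at 0 UMIs in the cycling granulocyte precursor-like and cycling immature neutrophil-like cells of both libraries, where the upper ends of the intervals lie at 2.41 and 3.13 CPM and at 0.970 and 0.804 CPM. Hist3h2ba was not confined to erythroid-like cells: it had 87 and 49 UMIs over all cells, 66 and 28 of them in erythroid-like cells. Hist1h1a was at 184 and 154 CPM in cycling erythroid-like cells against 22.2 and 14.4 CPM in cycling precursor-like cells. Over all B cell-like cells Hist1h1a was at 67.9 and 49.8 CPM (12 and 9 UMIs). Hist1h2bc, which is low in cycling neutrophil precursors (29.4 and 41.6 CPM), was at 228 and 121 CPM in cycling erythroid-like cells, and Hist1h4i at 241 and 150 CPM against 45.7 and 58.6 CPM.

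Between libraries, the sums pooled over classes stood in opposite order in cycling cells and in cells without cycle transcripts. The sum over all cells was 1002 CPM (988 to 1016) with the implant and 858 CPM (845 to 870) without, a ratio of 1.17 (1.14 to 1.19). In cycling cells it was 2117 and 1677 CPM, a ratio of 1.26 (1.23 to 1.29), and in cells without cycle transcripts the ratio was 0.902 (0.859 to 0.946). The share of cycling cells was 17.4% (16.1 to 18.8) and 15.3% (14.1 to 16.5). Erythroid-like cells were 57 of the 530 and 30 of the 526 cycling cells. Mature neutrophil-like cells were 798 of the 1674 and 1041 of the 2015 cells without cycle transcripts. The part of this unequal mix in the pooled ratios was not tested. By class the ratio was 1.43 (1.35 to 1.52) in erythroid-like, 1.27 (1.20 to 1.35) in precursor-like, 1.03 (0.939 to 1.12) in monocyte-like, 0.916 (0.870 to 0.965) in mature neutrophil-like and 0.726 (0.641 to 0.822) in macrophage-like cells. In immature neutrophil-like cells it was 1.12 (1.09 to 1.16), 1.15 (1.11 to 1.19) in the cycling ones and 0.838 (0.752 to 0.933) in those without cycle transcripts, and 3 other ways of clustering gave class ratios of 0.848, 0.883 and 0.908. In these 3 clusterings 2.51% to 4.02% of the placed cells of the class were cycling in either library. At Leiden resolution 2 the shares were 32.1% and 30.6%, and the class stayed higher in the implanted library. Other classes did not all show the pooled order. Cycling macrophage-like cells were at 652 and 916 CPM, a ratio of 0.712 (0.577 to 0.875), and cycling monocyte-like cells had a ratio of 1.05 (0.924 to 1.19). Without cycle transcripts the ratio was 1.18 (0.989 to 1.42) in monocyte-like, 1.02 (0.820 to 1.26) in macrophage-like and 2.05 (1.21 to 3.55) in B cell-like cells. The last rested on 13 and 14 cells with 41 and 24 histone UMIs, of which 1 cell gave 39.0% and 33.3%. The macrophage-like class is not made of the same clusters in both libraries, since 1 of its clusters held 62 implanted cells and 2 non-implanted cells. Its cycling share was 7.18% and 15.5%. Without Hist1h1c and Hist1h2bc its ratio was 0.435. The part of these differences in the ratio was not tested.

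The difference in cycling cells was spread unevenly over the histone types. H2A genes stood at 528 and 321 CPM, a ratio of 1.65 (1.57 to 1.74), and without Hist1h2ap and Hist1h2ae, a choice made after the values were seen, at 162 and 146 CPM, a ratio of 1.11 (1.02 to 1.21). H1 was at 1100 and 943 CPM, a ratio of 1.17 (1.13 to 1.20), H2B at 1.23 (1.13 to 1.34), H3 at 1.15 (1.02 to 1.31) and H4, at 243.9 and 210.3 CPM, at 1.16 (1.08 to 1.24). Of 51 members with 20 or more UMIs in cycling cells, 1 was at least 2-fold higher in the implanted library on the log2 scale of CPM plus 5 (background 0.329% of genes) and 0 lower (0.255%), with a median of 0.11 against 0.03 for all genes. The 1 gene was Hist1h2ap, at 168 and 59.0 CPM, a ratio of 2.85 (2.55 to 3.18). Next on the same scale were Hist1h2ae (198 and 115 CPM, 1.72 times, 1.58 to 1.88), Hist1h2ab (61.8 and 34.7 CPM, 1.78 times, 1.52 to 2.09) and Hist1h1a (35.1 and 19.2 CPM, 1.83 times, 1.48 to 2.26). By plain ratio 5 members were past 2-fold (background 5.29%). They were Hist1h2ap, Hist3h2ba at 2.02 times (1.33 to 3.12, 68 and 36 UMIs) and Hist1h2ai at 2.02 times (1.11 to 3.81, 34 and 18 UMIs) above, and Hist1h2af and Hist1h2an below. The lowest were Hist1h2af at 5.04 and 11.1 CPM, 0.452 times (0.295 to 0.678), Hist1h2an at 0.476 times and Hist1h3i at 0.577 times. Hist1h1d (1.00, 0.885 to 1.14), Hist2h2ac (0.950, 0.8002 to 1.127) and Hist1h2bj (1.01, 0.847 to 1.20) had intervals that span 1. Cycling erythroid-like cells numbered 57 and 30. Within all erythroid-like cells Hist3h2ba, with 66 and 28 UMIs there, had a ratio of 1.55 (0.984 to 2.51), which spans 1. Hist1h1a had 1.22 (0.908 to 1.66) in that class and 1.57 (1.01 to 2.45) in immature neutrophil-like cells. The part of the class mix was not tested.

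In cycling cells of each class Hist1h2ap stood at 311 and 83.6 CPM in erythroid-like, 158 and 61.2 CPM in precursor-like, 172 and 61.0 CPM in immature neutrophil-like and 55.2 and 24.8 CPM in monocyte-like cells, and at 46.6 and 39.0 CPM (10 and 12 UMIs) in macrophage-like cells. Its near-copy Hist1h2ao, with the same run of 12 A, had 17 and 20 UMIs in cycling cells, a ratio of 0.911 (0.448 to 1.83). Without Hist1h2ap and Hist1h2ae, a choice made after the values were seen, the ratio of the summed level in cycling cells was 1.165. The runs of A and the shared sequence of these members are given above, and their part in the difference was not tested.

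**Figure D5:**
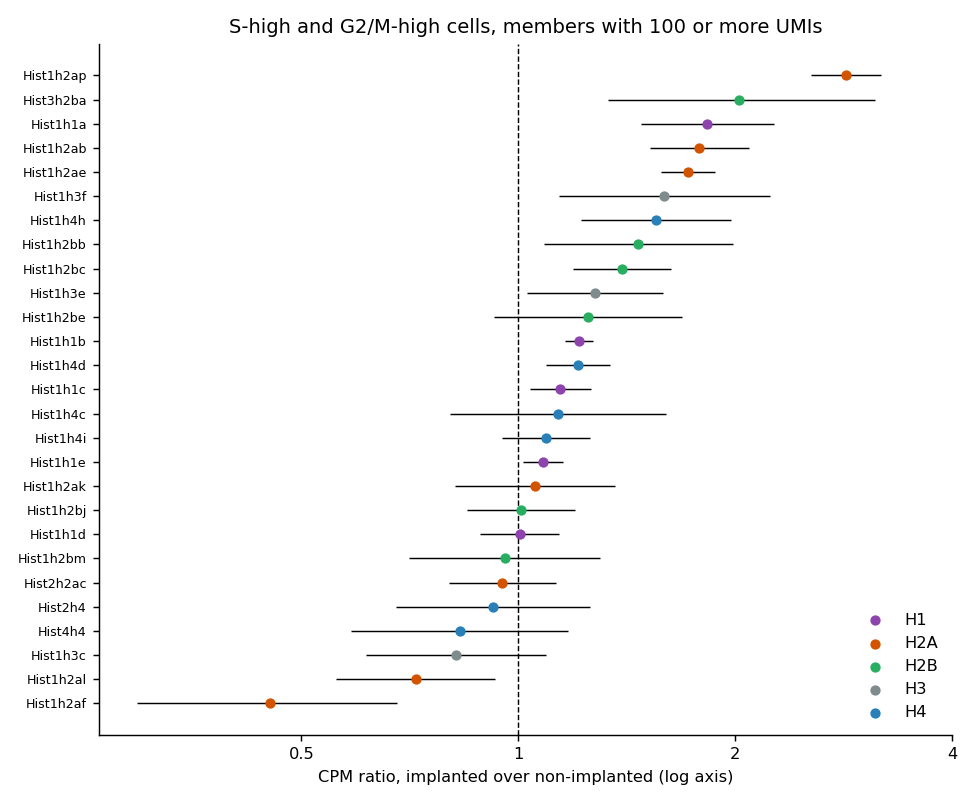
Ratio of CPM in cycling cells, implanted over non-implanted (x, log axis), for the 27 histone genes with 100 or more UMIs, with exact 95% counting intervals and colours for histone type. Hist1h2ap stands apart at 2.85, and Hist1h2af is lowest at 0.452.

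Within the 6 largest classes, counts past 2-fold were again taken on the log2 scale of CPM plus 5. In erythroid-like cells 4 of 26 were higher in the implanted library (background 2.89%) and 0 lower (1.26%): Hist1h2ap at 3.83 times, Hist1h2bb at 3.13, Hist1h2be at 2.75 and Hist1h4h at 2.47, the last 3 from 31 to 46 UMIs each. In precursor-like cells 1 of 25 was higher (background 1.06%) and 0 lower (0.16%), and in immature neutrophil-like cells 1 of 43 was higher (background 0.0363%) and 0 lower (0%). The gene was Hist1h2ap in both, at 2.64 and 2.81 times. Macrophage-like cells had 1 of 10 higher (background 2.94%), Hist1h2bc at 101 and 46.7 CPM, and 3 lower (background 1.74%), namely Hist1h1b at 16.5 and 60.3 CPM, Hist1h1d at 1.10 and 12.9 CPM and Hist1h1e at 15.9 and 43.4 CPM. On this scale no member reached 2-fold in mature neutrophil-like (6 tested, background 0.119% higher and 0.0119% lower) or monocyte-like cells (17 tested, 0.331% and 0.12%). In B cell-like cells 2 of 5 were higher (background 7%) and 0 lower (5.67%), where 1 cell gave 24.5% and 38.1% of the histone UMIs. In the unnamed cluster 1 of 6 was higher (14%) and 3 lower (6.93%), where 1 cell gave 61.4% and 43.6% of the histone UMIs. Over all cells 1 of 54 was higher (background 0.541%), again Hist1h2ap, and 0 lower (0.0198%), and over cells without cycle transcripts 0 of 16 were higher (0.802%) or lower (0.0486%). The furthest values in mature neutrophil-like cells were Hist1h1e at 0.813 times (0.614 to 1.07) and Hist4h4 at 1.29 times (0.609 to 2.71), both with intervals that span 1.

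By plain ratio, the members past 2-fold in either direction numbered 5 of 26 in erythroid-like (background 6.99%), 2 of 25 in precursor-like (4.7%), 6 of 43 in immature neutrophil-like (2.46%), 6 of 10 in macrophage-like (9.41%), 0 of 6 in mature neutrophil-like (3.69%) and 3 of 17 in monocyte-like cells (2.96%). The 3 in monocyte-like cells were Hist1h1a at 3.44 times (1.11 to 14.15, 16 and 4 UMIs), Hist4h4 at 3.16 times (1.24 to 9.52, 22 and 6 UMIs) and Hist1h2ap at 2.19 times (1.06 to 4.88, 28 and 11 UMIs).

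The partners of the clustered histones were read from 3 lists. Of the histone chaperones, which carry new histones to DNA, 15 of 21 tested were at least 2-fold higher in S-high cells and 0 lower, with a median of 1.93. Over all genes these shares were 15.3% and 7.83%, which hold for each of the 3 lists. The list also holds Kmt5a, which is no chaperone but a methyltransferase of histone H4. Asf1b, a chaperone of H3 and H4, had the highest ratio (69.7, from 1.84 and 2.16 CPM without cycle transcripts), while Daxx, which loads a replacement H3, had the lowest (0.630, 0.457 to 0.852). The 3 with the most UMIs, Atrx, Ubn1 and Kmt5a, had ratios of 1.674, 0.971 and 1.498. Of the genes listed for the processing of histone mRNA ends, not all of which make the end itself, 15 of 20 tested were higher. None was lower, and the median was 1.33. Slbp itself was at 48.5 and 44.7 CPM without cycle transcripts and 8.22 times (7.55 to 8.95) as high in S-high cells, and Lsm10, a subunit of the U7 particle that guides the cut, had the lowest ratio (0.525, 0.402 to 0.676). The spliceosome and U7 core proteins Snrpb and Snrpe were 3.52 and 4.40 times as high. Many replacement histones are also made outside S phase, from polyadenylated transcripts, and 4 of 10 tested were higher and 0 lower, with a median of 0.87. The H3.3 genes H3f3a and H3f3b, at 1392 and 1444 CPM and at 2000 and 1886 CPM without cycle transcripts, had ratios of 0.943 and 0.870, H2afz had 4.04 and H2afx, the H2A marked at DNA breaks, had 21.4 (18.5 to 24.9). In cycling cells 0 members of the 3 lists differed 2-fold between libraries on the log2 scale of CPM plus 5, where 0.329% of all genes were higher and 0.255% lower.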

How the data were processed

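Cells from 2 cochlear libraries, 1 per group, were measured with a 3′ single-cell protocol. The deposited matrices hold raw UMI counts per gene and cell barcode, made with Cell Ranger 3.0.1 per the file headers. Cell Ranger, Seurat and mm10 (GRCm38) are named in the submitters' processing notes, and for the annotation release the sources used here give nothing.

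Of 3231 and 3572 deposited barcodes, 82 and 59 with under 200 genes or over 10% mitochondrial UMIs were left out. Counts were summed per library, class and cycle state and divided by all UMIs of those cells, times 1000000 (CPM). Intervals were exact Poisson for CPM, exact conditional binomial for ratios and Clopper-Pearson for shares, all at 95%. Cycle states came from cells thinned to 1000 UMIs, so 103 and 69 shallower cells were in no state. Cells were clustered without histone rows on 2000 variable genes and 30 principal components, with 15 neighbours and Leiden resolution 1 (20 clusters), and named from 22 marker lists. A doublet score marked 84 and 102 cells, which were kept, and their removal was an alternative. Genes with 20 or more UMIs in the cells compared were called at 2-fold on log2 of CPM plus 5. The calculations were tested on simulated data.

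The members, gene lists and marker lists were chosen with earlier results of these data known. Named members were taken from the 15 with the most UMIs, the top member of each histone type and gene cluster, the 5 highest and 5 lowest ratios between S-high cells and cells without cycle transcripts, the 3 highest and lowest library ratios per class, and, per pathway list, the 3 genes with the most UMIs and the highest and lowest ratio; Hist1h2ao, Hist1h4h, Hist2h2ab, Hist1h4j, Hist1h2ai, Hist3h2ba in the library comparison and the pair at the 2-fold line were added after their values were seen. Alternatives covered the cell filter, doublets, clustering, cycle threshold, thinning depth, pseudocount, UMI minimum, weighting of cells and single dominant cells or genes. Clustering used scanpy 1.11.5 with leidenalg 0.10.2 and scikit-learn 1.9.0, intervals scipy 1.17.1, tables pandas 2.3.3 and numpy 2.4.6, and plots matplotlib 3.10.9, under Python 3.11.15.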

Additional observations from a re-analysis of the deposited data

Results flagged for a closer look

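The summed level of the clustered histone genes in the implanted over the non-implanted library pointed in different directions in different cells. The ratio was 1.262 in cycling cells and 0.9016 in cells without cycle transcripts, each pooled over classes that the libraries hold in unequal parts. By class it was 1.272 in granulocyte precursor-like, 1.435 in erythroid-like and 1.125 in immature neutrophil-like cells, and 0.916 in mature neutrophil-like and 0.7261 in macrophage-like cells. In some other clusterings, given below, the immature neutrophil-like ratio reversed and the precursor-like ratio was smaller. The macrophage-like ratio moved in both directions under other settings, and 1 of its clusters held 62 implanted and 2 non-implanted cells. With 1 library per group these differences were not tested.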

How the results depend on the processing

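No paired analysis was possible because each group has 1 library. Over 64 results and 23 other settings, 540 values were computed: 390 stayed within the counting interval or within 1.5 times of the count reported, 147 moved beyond it and 3 reversed; the cause was not tested unless the setting itself shows it. The reversals were the immature neutrophil-like ratio of implanted to non-implanted, at 0.848 with no cell filter, 0.883 at Leiden resolution 0.5 and 0.908 when clustered without cycle genes.

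These 3 clusterings put the class at 175, 177 and 179 CPM (implanted) and 206, 200.3 and 197 CPM (non-implanted), mature neutrophil-like cells at 766, 783 and 780 CPM (non-implanted), and precursor-like cells at 1628, 1616 and 1680 CPM (implanted), with precursor-like ratios of 1.07, 1.08 and 1.15. No cell filter also gave 4056 CPM for erythroid-like (implanted) and 402 CPM for macrophage-like cells (non-implanted). Resolution 2 gave 1037 and 898 CPM for immature and 637 and 735 CPM for mature neutrophil-like cells, a mature ratio of 0.866, and for macrophage-like cells 474 CPM (non-implanted) and a ratio of 0.591.

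The ratio of S-high cells to cells without cycle transcripts (implanted, non-implanted) was 4.59 and 3.27 at 2 or more cycle UMIs, 6.22 and 4.57 at 5 or more, 7.17 and 4.99 with the S list alone, 4.98 and 3.36 when thinned to 2000 UMIs, and 4.02 and 2.73 with the same weight for every cell. It was 15.9 and 10.9 without Hist1h1c and Hist1h2bc, and 4.65 and 3.68 without Hist1h2ap and Hist1h2ae, a setting chosen after seeing the data, which also gave library ratios of 1.09 in all and 1.165 in cycling cells.

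With the same weight for every cell the levels were 758 and 717 CPM in all cells, 814 and 898 in mature and 618 and 576 in immature neutrophil-like, 318 and 286 in monocyte-like and 1781 and 1385 in precursor-like cells, with 265 in macrophage-like and 3232 in erythroid-like cells of the non-implanted library. The library ratios were then 1.06 in all, 1.31 in cycling, 1.33 in erythroid-like, 1.07 in immature neutrophil-like and 0.942 in macrophage-like cells. Without Hist1h1c and Hist1h2bc the levels were 780 and 634 CPM in all cells, 153 and 174 in mature and 849 and 748 in immature neutrophil-like, 1812 and 1401 in precursor-like, 316 and 297 in monocyte-like, 110.5 and 254 in macrophage-like and 3854 and 2707 in erythroid-like cells, with ratios of 1.23 in all cells, 0.853 without cycle transcripts and 0.435 in macrophage-like cells. Without the top cell of each group, levels were 1838 CPM in precursor-like (implanted), 332 in macrophage-like (non-implanted) and 381 and 378 in monocyte-like cells. Without doublets they were 311 CPM in macrophage-like and 843 in mature neutrophil-like (non-implanted) and 387 in monocyte-like cells (implanted), with a macrophage-like ratio of 0.846.

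For the counts of members in this paragraph, shares over all genes were taken only with no CPM added, as given above by plain ratio. The other counts have no background beside them. Members at least 2-fold higher in S-high cells numbered 10 with 20 CPM added, and the count of lower members was 0 at 2 or more cycle UMIs. It was also 0 without Hist1h1c and Hist1h2bc, which was fixed in advance because Hist1h2bc was the only lower member. Members 2-fold different between libraries numbered 2 in cycling, immature neutrophil-like and monocyte-like cells with 1 CPM added, 5, 6, 2 and 3 in cycling, immature neutrophil-like, precursor-like and monocyte-like cells with none added, a setting chosen after seeing the data, 1 in erythroid-like and macrophage-like cells with 20 CPM added, and 1 in erythroid-like cells at 50 UMIs or more. They numbered 2 in macrophage-like cells without doublets or when clustered without cycle genes, where precursor-like cells had 2, and 0 in immature neutrophil-like cells with no cell filter or at resolution 0.5, and in precursor-like cells with no cell filter. All cells with a histone UMI were 50.6% and 51.4% when thinned to 2000 UMIs and 67.2% and 70.3% unthinned.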
